A study of Mus musculus with 22 samples.

Results

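The genes described here are targets of the peroxisome proliferator-activated receptors (PPARs) and the enzymes and carriers of fatty acid oxidation, measured in the colon of mice with and without PPAR γ in the intestinal epithelium during colitis. They form a list of 36 symbols, of which 33 had an Affymetrix probe set annotated to that single symbol among 18194 genes measured. Acsl1, Ucp2 and Cyp4a10 had none and were not analysed here. Where a gene had several probe sets, the set with the largest interquartile range over the 22 arrays stood for it. All 33 measured genes were in the upper 50% of genes by interquartile range, the 9097 genes on which tests were run.

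Both genotypes carried the floxed allele (PPAR γ fl/fl). VC+ mice (Villin Cre+) also carried a Cre recombinase driven by the Villin promoter, which acts in intestinal epithelial cells, while VC- mice (Villin Cre-) lacked it and kept an intact gene. Mice drank 2.5% dextran sodium sulfate (DSS), a polymer that injures the colonic epithelium, and RNA of homogenized colon tissue, which the labels name colonic mucosa, was measured at day 0, day 2 or day 7. The groups held 3, 3 and 4 arrays of VC- mice at days 0, 2 and 7, and 3, 5 and 4 arrays of VC+ mice. No age was given, nor a strain in the labels: the study kept mice of a mixed FVB/C57BL/6 and of a C57BL/6 background, and which of them these arrays came from was not given in the sources used here. Nothing in the labels ties the arrays to individual mice, and the p-values therefore speak only of the spread from sample to sample. Values are log2 expression values, and a log2 fold change of 1 is a doubling of signal. A gene passed the test, or was called, at an adjusted p under 0.05 by limma's moderated test with Benjamini-Hochberg adjustment over the genes tested. Whole tissue was measured, so fewer cells of a type and less RNA per cell cannot be told apart.

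Fatty acids enter cells through carriers such as CD36 and are activated to acyl-CoA by the long-chain acyl-CoA synthetases. Carnitine carries long chains into mitochondria, where dehydrogenases, hydratases and thiolases shorten them, while peroxisomes shorten very long and branched chains with enzymes of their own. PPARs are nuclear receptors that bind fatty acids as ligands, pair with the retinoid X receptor and act on DNA at repeats of a short half-site, and colonocytes draw much of their energy from the oxidation of fatty acids, butyrate above all.

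Pparg, the targeted gene, was measured at 9.63, 9.58 and 9.61 in VC- mice and 8.62, 8.50 and 8.83 in VC+ mice at day 0, in the order of replicate number. At day 2 the values were 9.87, 10.25 and 10.96 in VC- mice, and 6.91, 9.54, 8.27, 6.87 and 6.96 in VC+ mice. The genotypes did not overlap on either day. At day 7 they did, with 9.82, 7.39, 8.38 and 8.57 in VC- mice and 10.35, 10.08, 8.54 and 6.26 in VC+ mice. None of these genotype differences passed the test (log2 fold changes of -0.96, -2.65 and 0.27 at days 0, 2 and 7; adjusted p = 0.934, 0.242 and 0.862). Tissue other than epithelium keeps the gene, and the part of the transcript that the probe set reads was not compared with the deleted part, so these values do not check the deletion.

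Some arrays stood apart in ways that the groups do not state. Hoxb13, a homeobox gene of the most distal gut, was 7.29 to 9.67 in VC- mice at day 0 and 2.88 to 3.08 at day 2. In VC+ mice it was 12.42, 3.09 and 2.88 at day 0, and 12.42, 3.07, 9.45, 10.44 and 11.19 at day 2. At day 7 it was 3.81, 2.86, 3.03 and 9.62 in VC- mice and 3.10, 3.31, 3.07 and 6.88 in VC+ mice. VC- day 7 replicate 2 had the lowest epithelial markers: the mean of 12 markers lay 3.39 below its average over all arrays, against -0.14 to 0.46 on the other 21 arrays. Prss2, a pancreatic trypsinogen, was over 8 on 3 arrays (VC- day 0 replicate 3, VC- day 7 replicate 2 and VC+ day 7 replicate 4). Xist, which female cells transcribe, was over 8 on 6 arrays, none of them from day 7.

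At day 7 in VC- mice, 4 of the 33 genes passed the test: Angptl4 and Lpin1 rose, and Acsl3 and Retsat fell. Among all genes tested, 5.53% rose and 5.06% fell in the same comparison, so 2 of 33 in each direction was close to the background. At an unadjusted p under 0.05 the count was 9 of 33, against 32.4% of all genes tested. On all 4 day 7 arrays 2 of the 33 genes were above all day 0 arrays and 4 were below. Of all genes tested, 8.62% were above and 12.3% below in this way. Without VC- day 7 replicate 2 the genes called were Acsl3 and Lpin1, and without the 3 arrays with Prss2 signal they were Acsl3 and Angptl4. With only arrays without Xist signal (2 of day 0 and 4 of day 7) none was called, and the differences were -2.00 for Acsl3 (adjusted p = 0.111), 1.92 for Lpin1 (adjusted p = 0.0833), -1.56 for Retsat (adjusted p = 0.189) and 2.91 for Angptl4 (adjusted p = 0.206). The median of the 33 log2 fold changes was -0.15, with 13 above 0 and 20 below. Over all 18194 genes measured the median was -0.04, with 12013 below 0. The median of the 33 genes changed sign, to 0.12 without VC- day 7 replicate 2 and to 0.13 without the 3 arrays with Prss2 signal.

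Acsl3 encodes a long-chain acyl-CoA synthetase of the endoplasmic reticulum and lipid droplets, which activates fatty acids. In VC- mice its values were 10.77, 10.88 and 11.14 at day 0, 10.47, 10.51 and 11.05 at day 2, and 9.63, 8.02, 8.78 and 9.38 at day 7. Every day 7 array was below every array of days 0 and 2. The day 7 mean of 8.95 ± 0.72 (SD, n = 4) stood against 10.93 ± 0.19 (SD, n = 3), and the fold change on the log2 scale was -1.98 (standard error 0.39, adjusted p = 0.00675). This call held whichever array was left out, with a highest adjusted p of 0.0453. In VC+ mice the values were 10.65, 9.48 and 10.06 at day 0, 9.90, 10.64, 9.69, 9.79 and 9.93 at day 2, and 9.59, 9.81, 9.22 and 8.31 at day 7. Here day 0 and day 7 overlapped, and the difference of -0.83 (standard error 0.39, adjusted p = 0.356) did not pass. At day 0 Acsl3 was lower on all 3 VC+ arrays than on any VC- array, by 0.87 on the log2 scale (adjusted p = 0.751). The difference between the genotypes' day 7 responses was 1.15 (standard error 0.55, adjusted p = 0.583).

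Retsat encodes retinol saturase, an enzyme of the endoplasmic reticulum that acts on retinol and is a PPAR γ target in fat cells. At day 0 it was 7.01, 7.03 and 6.89 in VC- mice and 6.94, 7.48 and 7.26 in VC+ mice. By day 7 the values were 6.09, 4.44, 6.07 and 4.96 in VC- mice and 6.55, 6.59, 5.87 and 4.65 in VC+ mice, all below day 0 of the same genotype. Log2 fold changes were -1.58 (standard error 0.43, adjusted p = 0.0306) for VC- and -1.32 (standard error 0.43, adjusted p = 0.143) for VC+ mice, and the responses differed by 0.27 (adjusted p = 0.881). At day 2 the genotypes parted: VC- mice had 7.10, 7.03 and 7.50, and VC+ mice had 6.04, 6.72, 5.94, 5.73 and 6.42, all lower than any VC- array and any VC+ array of day 0. Neither that difference between genotypes (-1.04, adjusted p = 0.315) nor the change from day 0 in VC+ mice (-1.06, adjusted p = 0.630) passed the test. A second Retsat probe set also read lower at day 7, with mean differences of -0.97 in VC- and -1.42 in VC+ mice. It is the brighter of the pair, and with it in place of the first the call in VC- mice ended (adjusted p = 0.110). The call in VC- mice ended when any of 5 of the 7 arrays compared was left out, with a highest adjusted p of 0.104 without VC- day 0 replicate 3.

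Angptl4 encodes a secreted inhibitor of lipoprotein lipase and is a target of all PPARs and of hypoxia. Its values in VC- mice were 5.15, 4.93 and 6.31 at day 0, 6.28, 6.65 and 5.19 at day 2, and 6.47, 11.34, 8.50 and 8.25 at day 7. In VC+ mice they were 4.93, 5.14 and 5.35 at day 0, 4.69, 6.49, 5.42, 5.39 and 5.16 at day 2, and 7.83, 6.32, 8.08 and 10.10 at day 7. Day 7 lay above day 0 without overlap in both genotypes. Log2 fold changes were 3.18 (standard error 0.86, adjusted p = 0.0317) for VC- and 2.94 (standard error 0.86, adjusted p = 0.106) for VC+ mice, and their difference was -0.23 (standard error 1.22, adjusted p = 0.951). The highest value of each genotype came from an array with Prss2 signal. Without the 3 such arrays the log2 fold changes were 2.70 (adjusted p = 0.0367) and 2.27 (adjusted p = 0.0480). The call in VC- mice ended without any of 5 of its 7 arrays, with a highest adjusted p of 0.104 without VC- day 0 replicate 2. In VC+ mice the change passed when VC- day 7 replicate 2 was left out (adjusted p = 0.0188) or VC- day 7 replicate 1 (adjusted p = 0.0494). A second, dim probe set (mean value 3.18) differed by 1.03 in VC- and 0.03 in VC+ mice.

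Lpin1 encodes lipin 1, a phosphatidate phosphatase that also acts as a coactivator of PPAR α. In VC- mice it was 4.34, 5.03 and 4.58 at day 0, 5.46, 4.96 and 5.96 at day 2, and 5.53, 7.48, 6.41 and 6.10 at day 7. All day 7 arrays were above all day 0 arrays, and the rise was 1.73 (standard error 0.38, adjusted p = 0.0119). A second, dim probe set (mean value 3.91) differed by 1.15 in VC- and 1.01 in VC+ mice at day 7. At day 2 it differed by 0.12 in VC- and 1.28 in VC+ mice, against 0.81 and 1.12 for the first. The call ended without VC- day 0 replicate 3 (adjusted p = 0.0626). In VC+ mice the order of the days differed, with 4.66, 4.39 and 5.47 at day 0, 6.19, 6.09, 5.62, 5.93 and 5.93 at day 2, and 5.26, 5.81, 6.16 and 5.40 at day 7. There, every day 2 array exceeded day 0, by 1.12 on average (adjusted p = 0.499), and day 7 overlapped day 0 (0.82, adjusted p = 0.338). The difference between day 7 responses was -0.91 (standard error 0.53, adjusted p = 0.621).

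**Figure D1:**
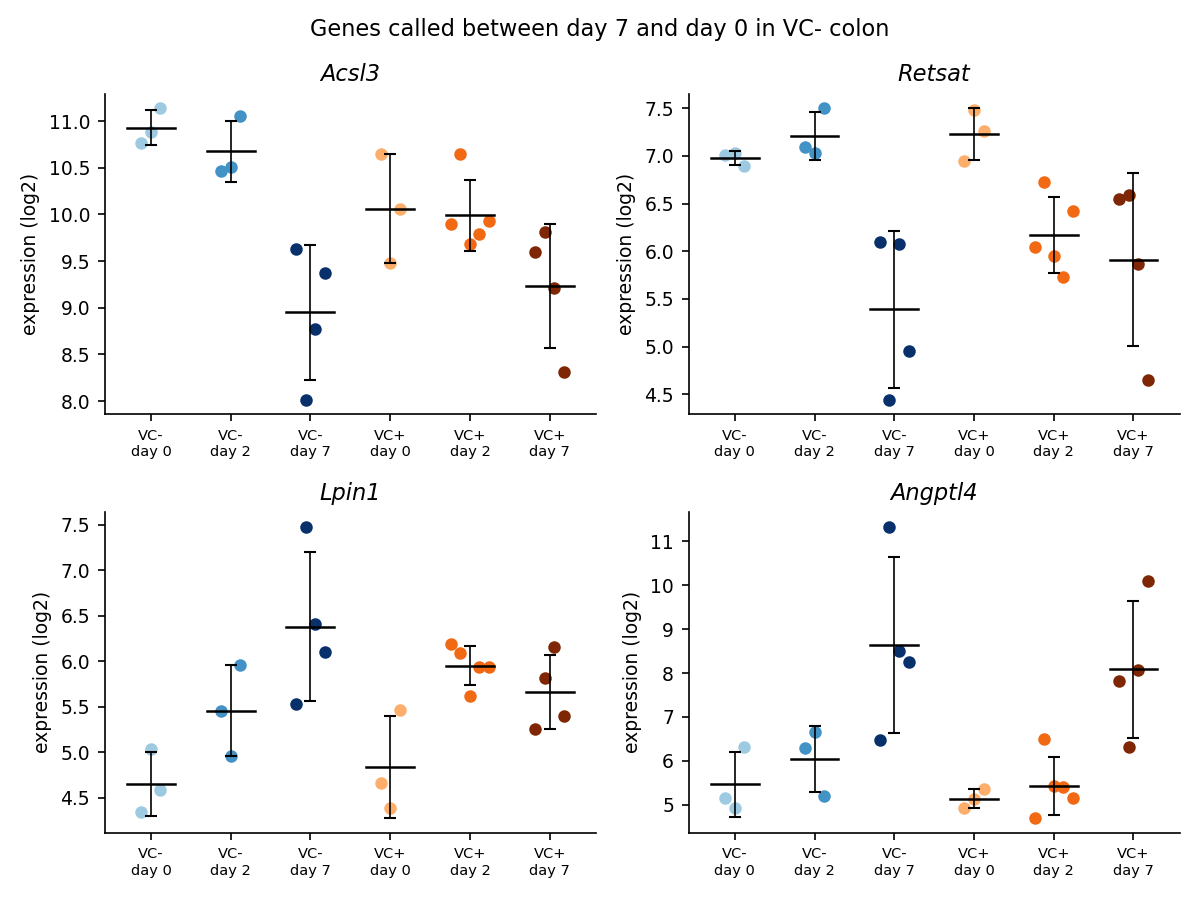
Log2 expression of Acsl3, Retsat, Lpin1 and Angptl4 (vertical axes) by genotype and day of DSS (horizontal axes). Each point is 1 array, horizontal lines are group means and error bars are SDs of 3 to 5 arrays. In VC- mice the 4 day 7 arrays lie below day 0 for Acsl3 and Retsat and above it for Lpin1 and Angptl4.

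The other genes of uptake and activation did not pass. Acsl4 encodes a synthetase with a preference for arachidonic acid. At day 7 it was 4.08, 8.78, 4.92 and 6.02 in VC- mice and 4.30, 4.41, 5.56 and 7.62 in VC+ mice, against 4.10, 3.86 and 3.86 and 3.37, 3.64 and 3.37 at day 0. The difference was 2.01 in each genotype (standard error 0.82 in each), with adjusted p = 0.105 for VC- and 0.267 for VC+ mice. VC- day 7 replicate 2 and VC+ day 7 replicate 4 gave the highest values. Both of its other probe sets read higher at day 7 in both genotypes. Acsl5, a synthetase of the mitochondria and endoplasmic reticulum of enterocytes, varied little, from 9.91 to 10.85 over all arrays. It was 0.50 higher at day 7 in VC+ mice (standard error 0.19, adjusted p = 0.228). Cd36, a fatty acid carrier that epithelium, fat cells and macrophages all express, ranged from 6.89 to 10.46, both extremes being VC- arrays of day 7.

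The immune markers moved at day 7 beside these genes. All 13 macrophage and monocyte markers measured had positive differences in both genotypes (medians 2.01 in VC- and 1.41 in VC+ mice). Of the 13, 10 passed the test in VC- and 3 in VC+ mice. The mean of the 13 per array was -0.96 to -0.76 at day 0 and -0.25 to 2.07 at day 7 in VC- mice, relative to the average over all arrays. Cd68 rose by 3.32 (adjusted p = 0.0101) in VC- mice and 2.90 (adjusted p = 0.0404) in VC+ mice. S100a8, a neutrophil protein, rose by 7.97 (adjusted p = 0.000556) and 9.16 (adjusted p = 0.000242). Of 12 epithelial markers all had negative differences at day 7 in VC- mice (median -0.73), and none of the 9 tested passed. Without VC- day 7 replicate 2 their mean at day 7 was 0.08 to 0.29 in VC- mice and -0.07 to 0.29 in VC+ mice. Markers of mature colonocytes differed more: all 11 had negative differences in VC- mice (median -0.85), and Slc26a3, the chloride-bicarbonate exchanger of the surface epithelium, fell by 2.88 (adjusted p = 0.0452). Their mean per array was 0.61 to 0.81 at day 0 and -0.09, -2.41, 0.18 and 0.46 at day 7 in VC- mice, so every day 7 array was below day 0 and remained so without replicate 2. In VC+ mice it was -0.29 to 0.00 at day 0 and -0.13, 0.31, -0.42 and -1.13 at day 7, with overlap, and 6 of 11 markers had negative differences (median -0.09). Of 8 fat tissue markers 6 were measured and none of the 4 tested was called, while Adipoq, the fat cell hormone adiponectin, ranged from 1.95 to 10.43 over the 22 arrays. Of 9 smooth muscle markers all had negative differences in both genotypes, and 1 passed in VC- mice. The part of these cells in the differences of Angptl4, Lpin1, Acsl3, Retsat, Acsl4 and Cd36 was not tested.

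In VC+ mice at day 7 none of the 33 genes passed the test by limma, against 1.32% of all genes that rose and 0.429% that fell. At an unadjusted p under 0.05 the count was 6 (Angptl4, Retsat, Acsl5, Acsl4, Lpin1 and Acsl3), against 13.7% of all genes. Without overlap, 2 of the 33 genes were above day 0 and 3 below, against 9.61% and 8.61% of all genes tested. The median log2 fold change of the 33 genes was -0.14, with 12 values above 0 and 21 below. Of all 18194 genes measured, 7267 were below 0. Without the arrays with Prss2 signal the median of the 33 genes was 0.06. The 4 genes called in VC- mice had the same sign in VC+ mice, and both comparisons were fitted with 1 common estimate of spread.

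The carnitine shuttle did not pass at day 7 in either genotype. Cpt1a, the carnitine palmitoyltransferase of the outer mitochondrial membrane and the rate-limiting step of long-chain entry, was 11.40, 11.32 and 11.83 at day 0 and 11.38, 10.47, 11.28 and 11.03 at day 7 in VC- mice, which made a difference of -0.48 (standard error 0.29, adjusted p = 0.254). Of its other probe sets, 1 differed by 0.10 and so gave the opposite sign. Cpt2 (-0.23), which reverses the transfer inside the mitochondrion, Slc25a20 (-0.08), the carnitine-acylcarnitine exchanger, and Crat (0.34), an acetyltransferase for short chains, had smaller differences in VC- mice. In VC+ mice the 4 values lay between -0.33 and -0.09.

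Enzymes of mitochondrial oxidation were, by median, 0.45 lower at day 7 than at day 0 in VC- mice and 0.22 lower in VC+ mice, and none of 13 passed in either. Hadh, the short-chain hydroxyacyl-CoA dehydrogenase, had the largest difference of the 13. Its values in VC- mice were 12.50, 12.59 and 12.50 at day 0 and 12.39, 9.87, 12.30 and 11.73 at day 7, all below day 0 (log2 fold change -0.96, standard error 0.45, adjusted p = 0.147). In VC+ mice they were 12.67, 12.63 and 12.70 at day 0 and 12.49, 12.55, 12.37 and 11.03 at day 7, again with no overlap (-0.56, adjusted p = 0.657). Both further Hadh probe sets were lower at day 7 in both genotypes. Echs1, the enoyl-CoA hydratase, was also below day 0 on all 4 VC- arrays (-0.52, adjusted p = 0.153), and Etfdh, which passes the electrons to the respiratory chain, was below day 0 on all 4 VC+ arrays (-0.35, adjusted p = 0.595). Of the acyl-CoA dehydrogenases, Acadm (medium chain) differed by -0.78, Acads (short chain) by -0.46, Acadvl (very long chain) by -0.15 and Acadl (long chain) by 0.08 in VC- mice, with adjusted p from 0.114 to 0.845.

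The remaining mitochondrial enzymes had differences of either sign at day 7 in VC- mice. Eci1, an enoyl-CoA isomerase, differed by -0.83, Acaa2, a thiolase, by -0.45, Decr1, a dienoyl-CoA reductase, by -0.22, and Hadhb and Hadha, the subunits of the trifunctional protein, by -0.09 and 0.27. Acot2, a thioesterase that frees fatty acids from CoA, differed by 0.56. None of these passed.

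Peroxisomal enzymes had a median of -0.34 at day 7 in VC- mice and -0.10 in VC+ mice, with 0 of 6 called in each. Ehhadh, the bifunctional enzyme of the PPAR-inducible peroxisomal pathway, was 8.72, 8.68 and 8.96 at day 0 and 8.28, 6.06, 8.89 and 7.56 at day 7 in VC- mice (-1.09, standard error 0.56, adjusted p = 0.180). In VC+ mice it was 8.54, 9.58 and 9.37 at day 0 and 8.64, 8.74, 8.70 and 6.53 at day 7 (-1.01, standard error 0.56, adjusted p = 0.458). VC- day 7 replicate 2 and VC+ day 7 replicate 4 gave the lowest values. In VC- mice Acaa1a, a thiolase, differed by -0.53, Pex11a, which acts in peroxisome division, by -0.15, Hsd17b4, which handles very long and branched chains, by 0.04 and Eci2, an isomerase, by 0.20. Decr2, a peroxisomal dienoyl-CoA reductase, ranged from 5.21 to 8.43, with its minimum on VC- day 7 replicate 2 and its next lowest value, 6.62, on VC+ day 7 replicate 4.

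The mitochondrial and peroxisomal enzymes were lowest on these 2 arrays of day 7. On VC- day 7 replicate 2 the mean deviation of the 13 mitochondrial genes was -1.24 and that of the 6 peroxisomal genes -1.12, where 0 is the average over all arrays. On VC+ day 7 replicate 4 the values were -0.68 and -0.82. The other day 7 arrays lay between -0.44 and 0.42 for the mitochondrial and between -0.53 and 0.31 for the peroxisomal genes. The 12 epithelial markers were far lower on the first of these arrays (-3.39) and within the range of the rest on the second (-0.07). The 11 colonocyte markers, however, were lowest on the same 2 of the 22 arrays, at -2.41 and -1.13, and both arrays had Prss2 signal. The part of lost epithelium or of pancreatic tissue in these values was not tested.

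**Figure D2:**
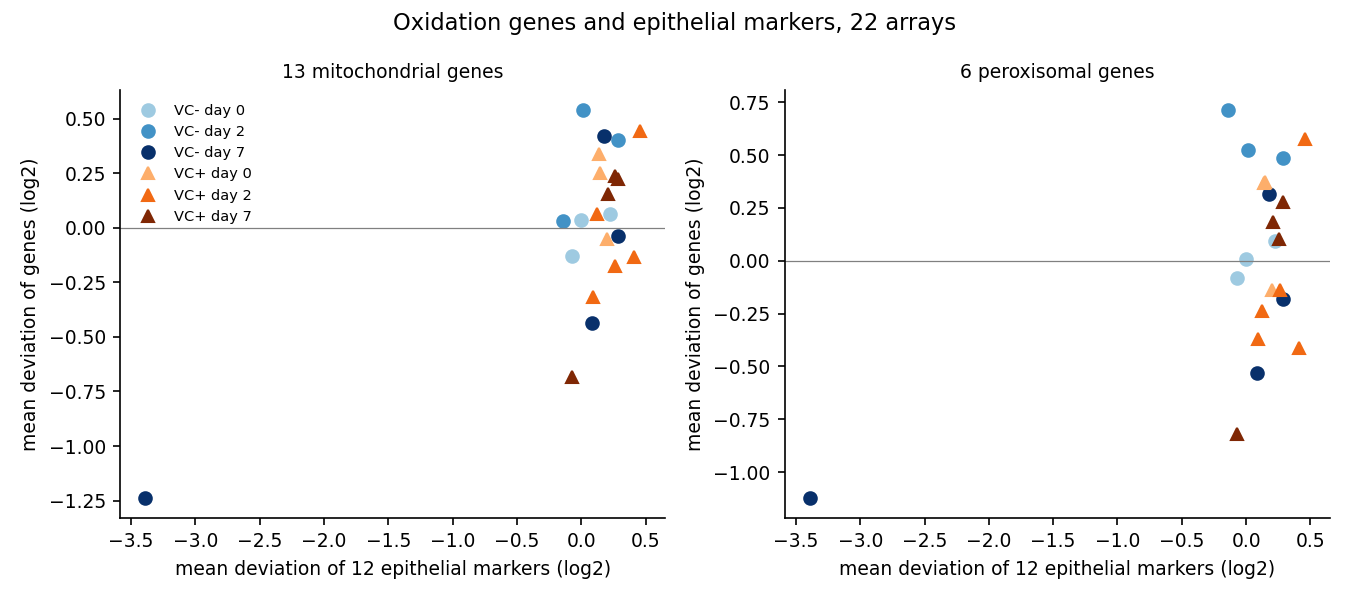
Mean deviation of the 13 mitochondrial (left) and 6 peroxisomal (right) genes from their average over all arrays (vertical axes, log2) against that of 12 epithelial markers (horizontal axes, log2). Each point is 1 array, circles are VC- and triangles VC+ mice. VC- day 7 replicate 2 lies alone at -3.39, with -1.24 and -1.12 for the genes of oxidation.

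At day 2 in VC- mice, 30 of the 33 genes were above their day 0 mean, as were 11096 of all 18194 genes measured. None of the 33 passed the test, against 0.011% of all genes. The median log2 fold change was 0.41, that over all genes measured 0.01. The shift was seen in the carnitine shuttle (median 0.56, 4 of 4 above 0), mitochondrial oxidation (0.33, 11 of 13), peroxisomal oxidation (0.64, 6 of 6) and the other PPAR targets (0.66, 6 of 6), and was near 0 for uptake and activation (0.08, 3 of 4). At an unadjusted p under 0.05 the count was 4 of 33 (Vnn1, Hsd17b4, Cpt1a and Acaa1a, all higher), against 4.58% of all genes. On all 3 day 2 arrays 14 of the 33 genes were above all day 0 arrays and none was below, against 7.83% of all genes tested that were above. Hoxb13 was lower on every one of these day 2 arrays than on any VC- array of day 0, and with the Hoxb13 value as a covariate the median of the 33 genes was 0.09. Smooth muscle markers moved the other way in the same comparison, with 7 of 9 lower (median -0.79) and means per array of 0.32 to 0.91 at day 0 and -0.88 to 0.61 at day 2. In these 2 groups colon position and DSS cannot be told apart, and the part of muscle in the shift was not tested.

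Vnn1, which encodes pantetheinase, an enzyme that frees the vitamin part of coenzyme A from pantetheine and a target of PPAR α, had the widest range of the list. In VC- mice it was 4.90, 4.79 and 4.51 at day 0 and 9.45, 9.86 and 8.04 at day 2, without overlap (log2 fold change 4.38, standard error 1.56, adjusted p = 0.980). With only these 6 arrays in the fit it passed (adjusted p = 0.0333). At day 7 the VC- arrays divided, with 8.63, 4.69, 4.45 and 7.24. VC+ mice had 4.14, 4.24 and 3.41 at day 0, 5.02, 8.57, 3.35, 4.09 and 4.46 at day 2, and 10.87, 8.93, 4.02 and 3.89 at day 7. Within both day 7 groups and among VC+ mice at day 2 some arrays were near the day 0 level and others far above it. A second Vnn1 probe set differed by 4.12 at day 2 in VC- mice.

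All 6 peroxisomal genes had day 2 means above day 0 in VC- mice. Hsd17b4, the bifunctional enzyme of very long and branched chains, was 9.69, 9.81 and 9.61 at day 0 and 10.26, 10.36 and 10.47 at day 2 (0.66, standard error 0.26, adjusted p = 1.00). Ehhadh went from 8.72, 8.68 and 8.96 to 9.64, 9.67 and 9.83 (0.93, standard error 0.60), Acaa1a, the peroxisomal thiolase, from 9.36, 9.14 and 8.66 to 9.64, 9.69 and 9.65 (0.61, standard error 0.28), and Pex11a, a factor of peroxisome division, from 7.16, 6.97 and 7.32 to 7.38, 8.55 and 7.52 (0.67, standard error 0.58). For all 4 genes the day 2 arrays were above the day 0 arrays without overlap, and none passed (adjusted p = 1.00 for each). Eci2 and Decr2, at 0.29 and 0.25, overlapped. Acaa1a has a close paralog, Acaa1b, and the probe sets of such a pair may share signal.

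Cpt1a showed the same order in VC- mice, with 12.22, 12.07 and 12.31 at day 2 against 11.32 to 11.83 at day 0 (0.68, standard error 0.31, adjusted p = 1.00), and its further probe sets differed by 0.80 and 0.67. Among mitochondrial enzymes, Eci1 (0.72), Hadhb (0.43), Hadh (0.31), Decr1 (0.41) and Acot2 (0.93) were higher on all day 2 arrays than on any day 0 array, and all 5 are among the 14 without overlap. Echs1 (-0.20) and Etfdh (-0.10) had the only values below 0 in their group. Lpin2, a relative of lipin 1, was 8.11, 7.62 and 8.21 at day 2 and 7.60, 7.08 and 7.01 at day 0 (0.75, standard error 0.42).

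At day 2 in VC+ mice the signs were mostly opposite: 24 of the 33 genes were below their day 0 mean, with a median of -0.16. Of all 18194 genes measured, 10550 were also below it. None of the 33 passed the test, against 0.055% of all genes, and 2 of 33 had an unadjusted p under 0.05 (Lpin1 higher and Retsat lower), against 6.57%. Medians were -0.33 for the carnitine shuttle, -0.20 for mitochondrial and -0.27 for peroxisomal oxidation, 0.08 for uptake and activation and -0.07 for the other targets. The difference between the day 2 responses of the genotypes was below 0 for 28 of 33 genes (median -0.67), for all 4 genes of the carnitine shuttle and for all 6 peroxisomal genes (median -0.81). No gene passed the test of this difference, against 0.022% of all genes. At an unadjusted p under 0.05 it was 3 of 33 (Hsd17b4, Lpin2 and Retsat, all below 0), against 6.46%. The largest differences were those of Vnn1 (-3.22), Pex11a (-1.55) and Ehhadh (-1.38). Over all genes measured, 11253 of 18194 differences were also below 0. Smooth muscle markers went the opposite way: all 9 were higher at day 2 in VC+ mice (median 0.89), and all 9 had a difference between responses above 0 (median 1.85). With the Hoxb13 value as a covariate the median difference of the 33 genes was -0.16. With only arrays without Xist signal, which keeps 1 VC- array of day 2, it was -0.39. The part of colon position or muscle in these values was not tested further.

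**Figure D3:**
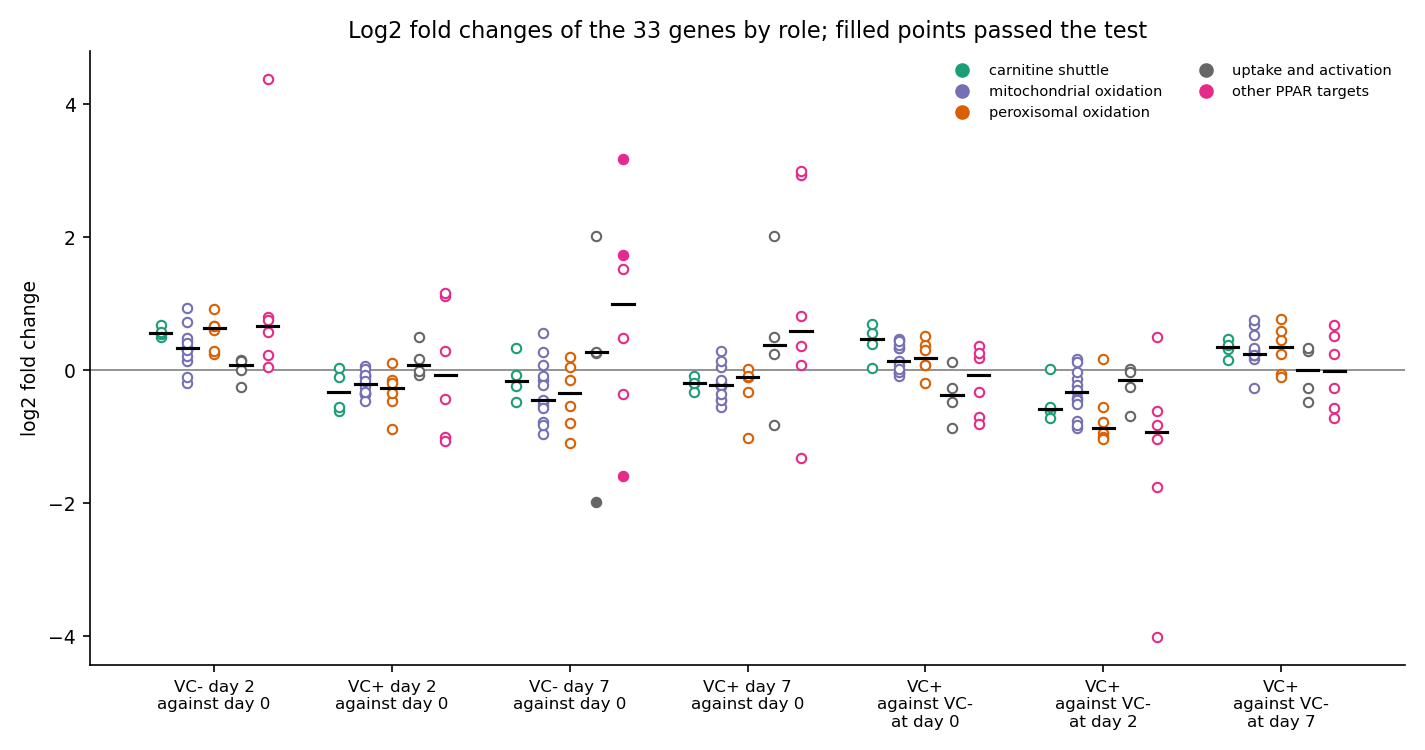
Log2 fold changes of the 33 genes (vertical axis) in 7 comparisons (horizontal axis), colored by role. Each point is 1 gene, black bars are the medians of a role, and filled points passed the test at an adjusted p under 0.05. Filled points occur in VC- mice at day 7, while the day 2 medians lie above 0 in VC- mice and mostly below 0 in VC+ mice.

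Between the genotypes, no gene of the list passed at any day. At day 0 the median difference of VC+ from VC- mice was 0.12, with 22 of 33 above 0. Of all 18194 genes measured, 6575 were above 0. The share of all genes called was 0.011%, and at an unadjusted p under 0.05 it was 1 of 33 (Crat, higher in VC+ mice) against 6.6%. Crat was 7.37, 7.12 and 7.73 in VC+ and 7.07, 6.70 and 6.38 in VC- mice (0.69, standard error 0.28, adjusted p = 0.678). Cpt2, Acadvl, Hadha, Hadhb and Hadh were also higher on every VC+ array than on any VC- array of day 0, by 0.56, 0.34, 0.47, 0.33 and 0.13, and Acsl3, Acsl4 and Vnn1 were lower without overlap. With Crat these are 6 genes higher and 3 lower of 33, and 9.66% and 10.6% of all genes tested were higher and lower in this way. All 9 smooth muscle markers were lower in VC+ mice at day 0 (median -0.54). Of 11 colonocyte markers 7 were lower. Their mean per array was 0.61 to 0.81 in VC- and -0.29 to 0.00 in VC+ mice. Hoxb13 was high on all VC- arrays and divided the VC+ arrays. With the Hoxb13 value as a covariate the median of the 33 genes was 0.03. The part of tissue or colon position in these values was not tested.

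At day 2, 27 of 33 genes were lower in VC+ than in VC- mice, with a median of -0.56, and -0.86 for the peroxisomal genes. None passed, against 0.044% of all genes, and 8 of 33 had an unadjusted p under 0.05, all lower (Acaa1a, Hsd17b4, Acadl, Vnn1, Retsat, Cpt1a, Lpin2 and Eci2), against 12.3% of all genes. Acaa1a was 8.73, 9.42, 8.38, 8.58 and 8.51 in VC+ mice, below the 9.64 to 9.69 of VC- mice on every array (-0.94, standard error 0.25, adjusted p = 0.235). Hsd17b4 was 9.42, 10.25, 9.31, 9.39 and 9.55 against 10.26 to 10.47 (-0.78, standard error 0.23, adjusted p = 0.243), and Ehhadh was also lower without overlap (-1.01, standard error 0.53). With Retsat, 4 of 33 genes were lower without overlap, against 4.02% of all genes tested. The difference of Vnn1 was -4.02 (standard error 1.40, adjusted p = 0.275). Of all 18194 genes measured, 11862 were also lower in VC+ mice. Hoxb13 was low on all 3 VC- arrays and high on 4 of the 5 VC+ arrays, and all 9 smooth muscle markers were higher in VC+ mice (median 1.13). With the Hoxb13 value as a covariate the median of the 33 genes was -0.15.

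At day 7 the median difference of VC+ from VC- mice was 0.25, with 25 of 33 above 0. Of all 18194 genes measured, 12057 were also above 0. Without VC- day 7 replicate 2 the median of the 33 genes was 0.04. That of the difference between the day 7 responses was then -0.05 in place of 0.21. No gene of the list had an adjusted or unadjusted p under 0.05, against 0% and 14.2% of all genes, and for the difference between the day 7 responses (median 0.21) the same held, against 0% and 8.48%.

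On the day 2 arrays of VC+ mice, several of these genes were high where Hoxb13 was low. VC+ day 2 replicate 2 was the only one of the 5 with a low Hoxb13 value. It also had the highest mean of the epithelial markers of all arrays (12.54, next 12.49 on VC+ day 2 replicate 3). Whether the values of this array go with Hoxb13 or with its epithelium was not tested. The 6 genes that follow are examples, and no count over the 33 genes is given here. On this array each of the 6 had the highest value of its group. Pex11a was 8.45 there and 6.28 to 6.53 on the other 4 arrays, Acadl 12.01 against 10.72 to 11.03, Hsd17b4 10.25 against 9.31 to 9.55, Hadha 11.37 against 10.60 to 10.77, Pdk4 8.50 against 4.82 to 6.28 and Vnn1 8.57 against 3.35 to 5.02. Pdk4, a kinase that shuts off pyruvate dehydrogenase and so spares glucose, divided VC+ mice at day 0 in the same way, with 4.92 on the array of high Hoxb13 and 8.57 and 8.06 on the other 2. Yet in VC- mice at day 0, where Hoxb13 was 7.29 or above, Pdk4 was 8.11, 7.56 and 7.97, within the 7.33 to 8.47 of day 2. At day 7 it was 5.95, 9.40, 9.01 and 5.76 in VC- and 7.75, 6.02, 8.37 and 6.89 in VC+ mice, on both sides of the day 0 level.

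The slope of each gene on Hoxb13 within the 6 groups was then fitted by limma over 9096 genes, a test chosen after seeing the data. It rests on the 4 groups that hold arrays on both sides of a Hoxb13 value of 6. Of the 33 genes, 29 had a slope below 0, against 45.8% of all genes tested. Of the 33, 3 passed, all below 0, against 1.43% of all genes. At an unadjusted p under 0.05 the count was 8, against 10.2%. Per log2 unit of Hoxb13, Pdk4 was lower by 0.36 (standard error 0.06, adjusted p = 0.00632), Hsd17b4 by 0.08 (standard error 0.02, adjusted p = 0.0358) and Lpin2 by 0.12 (standard error 0.03, adjusted p = 0.0474). Acaa2 (-0.17, adjusted p = 0.0598), Acot2 (-0.15, adjusted p = 0.0959) and Pex11a (-0.14, adjusted p = 0.245) did not pass. The count was 0 when VC+ day 2 replicate 2 was left out, 0 when VC+ day 0 replicate 1 was left out and 0 with the replicate number as a block. The slopes themselves moved less than the calls: that of Pdk4 was -0.35 (adjusted p = 0.0520), -0.36 (adjusted p = 0.111) and -0.36 (adjusted p = 0.176) in these 3 fits, that of Lpin2 -0.11, -0.11 and -0.15, and that of Hsd17b4 -0.07, -0.10 and -0.06. Without VC- day 7 replicate 2 the count was 9, among 442 of all genes called. Without the 3 arrays with Prss2 signal it was also 9, among 368.

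**Figure D4:**
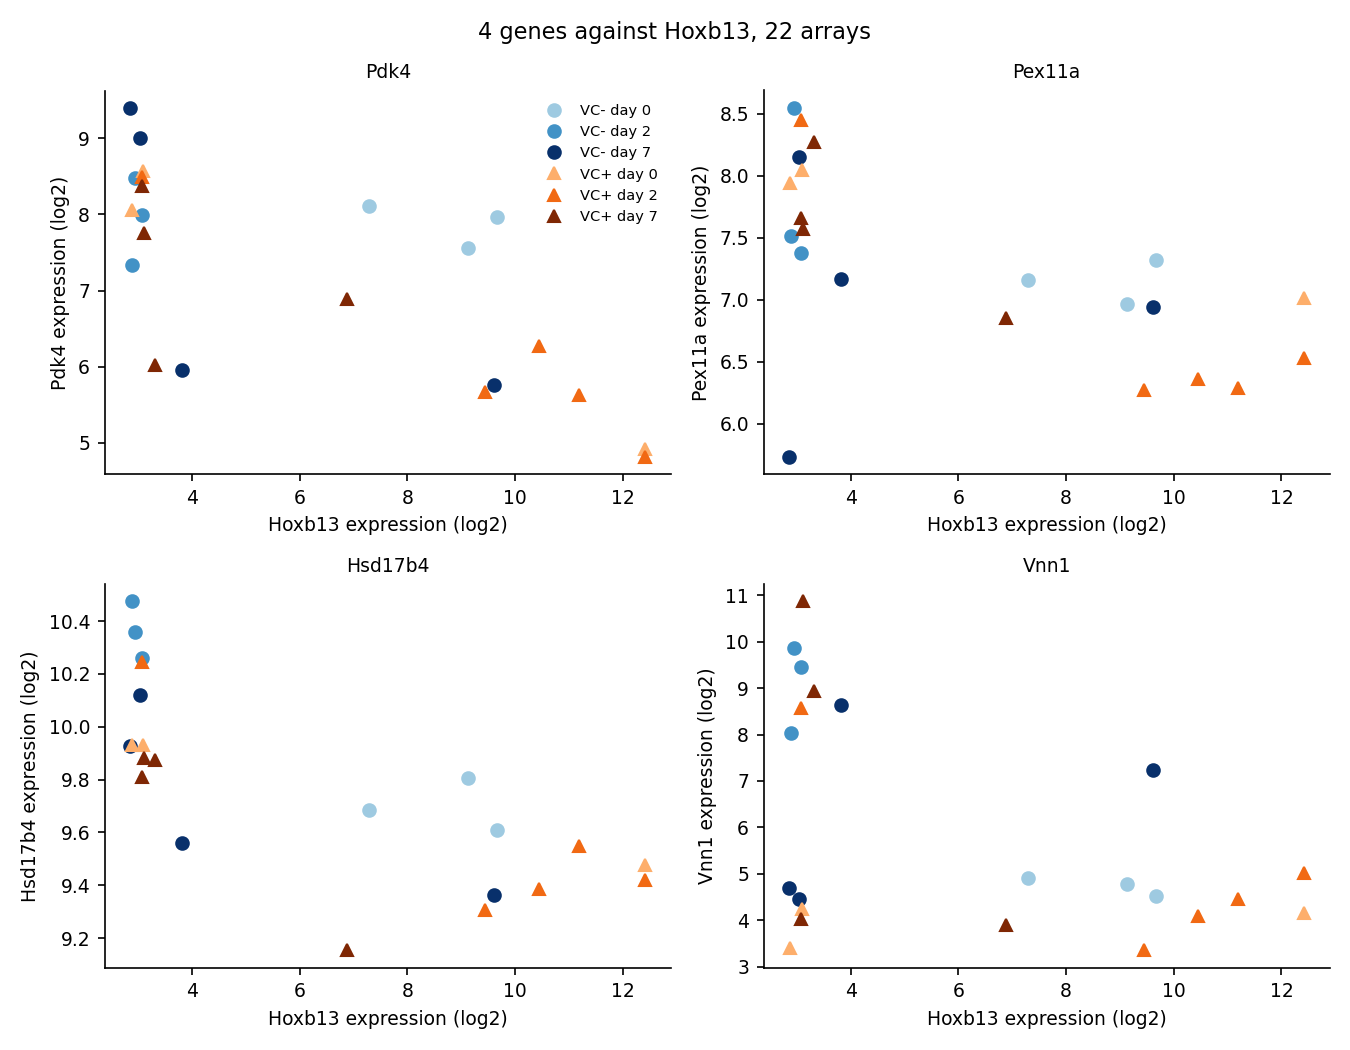
Log2 expression of Pdk4, Pex11a, Hsd17b4 and Vnn1 (vertical axes) against that of Hoxb13 (horizontal axes). Each point is 1 array, circles are VC- and triangles VC+ mice, and darker colors are later days. VC+ day 2 replicate 2, with Hoxb13 at 3.07, lies above the other 4 arrays of its group in each panel.

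Ppara, the receptor best known for driving fatty acid oxidation, was 6.54, 6.69 and 5.22 at day 0 and 7.63, 8.26 and 7.75 at day 2 in VC- mice, without overlap (1.73, adjusted p = 1.00). In VC+ mice it was 5.81, 7.53 and 7.31 at day 0 and 5.72, 7.88, 5.48, 5.86 and 5.95 at day 2, high on the arrays of low Hoxb13. Ppard, the third receptor, ranged from 6.29 to 8.49 with no change called. Of 10 receptors and coactivators listed, 8 were measured and 6 tested, and none was called in any of the 9 comparisons.

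Further genes of the same pathways gave few calls. Of 5 genes measured from a list of ketone synthesis and use, 4 were tested, with none called in the 9 comparisons. The medians of the ketone genes were -0.47 in VC- and -0.21 in VC+ mice at day 7, against -0.04 and 0.01 over all genes measured. Their mean deviation per array in VC- mice was 0.06 to 0.19 at day 0 and -2.00 to 0.25 at day 7. In VC+ mice it was 0.06 to 0.17 and -0.35 to 0.29, so the days overlapped in both genotypes. Of 13 other mitochondrial genes tested, 1 was called: Acot9, a thioesterase, rose by 1.37 at day 7 in VC+ mice (standard error 0.29, adjusted p = 0.0195). Of 15 other peroxisomal genes tested, Pecr, a trans-enoyl-CoA reductase, fell by 1.02 at day 7 in VC- mice (standard error 0.30, adjusted p = 0.0409).

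Acaa1b, the second peroxisomal thiolase, was lower in VC+ than in VC- mice at day 2 (-6.34, standard error 1.06, adjusted p = 0.0217). It was 8.02, 10.74 and 9.03 in VC- mice and 2.40, 4.86, 2.50, 2.44 and 2.43 in VC+ mice, and between 2.48 and 2.65 on all 6 arrays of day 0. The array at 4.86 was the one with low Hoxb13. At day 7 it was 7.87 and 7.94 on 2 VC+ arrays and under 3.5 on the other 6. The same comparison called Fabp1, the liver fatty acid binding protein, which was 7.00, 7.81 and 5.52 in VC- and 4.11, 4.43, 4.20, 4.21 and 4.10 in VC+ mice (-2.56, standard error 0.39, adjusted p = 0.00875). With the Hoxb13 value as a covariate neither passed: the difference was -5.26 (adjusted p = 0.670) for Acaa1b and -2.37 (adjusted p = 0.440) for Fabp1. Both calls also ended with the replicate number as a block (adjusted p = 0.151 for each), with only these 2 groups in the fit, and without VC- day 2 replicate 2 (adjusted p = 0.349 and 0.146). That of Acaa1b also ended with no variance filter or without any of 5 other arrays of day 2. With only arrays without Xist signal, which keeps 1 VC- array of day 2, the differences were -4.76 for Acaa1b and -2.75 for Fabp1.

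Of 12 other genes of uptake and activation tested, Acss2, which activates acetate, fell by 2.30 at day 7 in VC- mice (standard error 0.71, adjusted p = 0.0460), and all 4 VC+ arrays of day 7 were also below day 0 (-1.21, adjusted p = 0.493). Of 14 other PPAR targets tested, Plin2, a lipid droplet coat protein, rose by 1.10 (standard error 0.30, adjusted p = 0.0307) and Pck1, the rate-limiting enzyme of gluconeogenesis, fell by 2.73 (standard error 0.82, adjusted p = 0.0414) in the same comparison. Without VC- day 7 replicate 2 the differences of Pecr, Acss2, Plin2 and Pck1 were -0.87, -1.32, 0.98 and -1.81, and none passed (adjusted p from 0.0718 to 0.104). In VC+ mice Pck1 was 4.52, 6.56, 6.84 and 3.59 at day 7, below the 7.83 to 8.10 of day 0 on every array (-2.59, adjusted p = 0.134). In VC+ mice Plin2 differed by -0.02 (adjusted p = 0.989), and the responses differed by -1.12 (standard error 0.42, adjusted p = 0.580). Fabp2, the intestinal fatty acid binding protein, was 14.29, 14.34 and 13.64 in VC- and 12.14, 12.82 and 13.23 in VC+ mice at day 0, without overlap (-1.36, standard error 0.97, adjusted p = 0.877).

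Promoters of these genes were searched for the PPAR binding motif, the repeat on which the receptors act. RefSeq promoters of build GRCm38.p6, which run from 250 bases before to 50 after a start site, were given for 29 of the 36 genes. The full motif, a direct repeat of AGGTCA with 1 base between, was in none of them on either strand and in 0.0396% of all 32851 promoters. A looser repeat, in which the fourth base of each half-site was free, was in none and in 0.381% of all. At rates this low, no match among 29 genes was the likely outcome, so it does not set these genes apart. Sequence outside the windows was not searched. The single half-site AGGTCA was in 6 of the 32 promoters of these genes, which belong to 6 of the 29 genes, and in 16.3% of all promoters. The 5 matches with 12 bases of the window on each side are shown as the letters behind this count, 5′ to 3′ on the strand of the gene, and with the half-site or its reverse complement in capitals.
Cpt1a: cagtttccttacTGACCTcctccccgcagc
Acadvl: atggatcaccctAGGTCAggtagaatacag
Echs1: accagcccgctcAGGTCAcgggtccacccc
Cd36: ctctgcactttaTGACCTgagattttcagg
Lpin1: ggaagtagcttgAGGTCActtcctgtagtc
These lie at chr19:3323195-3323224 (plus strand), chr11:70015498-70015527, chr7:140116487-140116516, chr5:17836107-17836136 and chr12:16611023-16611052 (all minus strand), and the half-sites begin at positions -94, -87, -83, -228 and -74 from the start site. The sixth match, of Acadm, is at the edge of its window. Of the 4 genes called at day 7, Lpin1 had a half-site, Acsl3 and Retsat had none in these windows, and no promoter was given for Angptl4. A match of 6 letters is a description of the sequence, not a site of binding.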

How the data were processed

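RNA of mouse colon was hybridized to 22 Affymetrix whole-genome mouse arrays in 6 groups of genotype and day. The deposited values are on the log2 scale and were made by the authors from scanner files with GC-RMA, which corrects background, normalizes arrays and summarizes probes, in R 2.10.1. Of 45101 probe sets, 34958 were annotated to 1 symbol, 932 to several (not used) and 9211 were unlisted and so unnamed. The series table was used as deposited, and no batch is given in it.

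Each of 18194 genes was read by 1 probe set, that of widest interquartile range over the arrays, and the upper 50% of genes by that range (9097) was tested. The limma package (3.58.1, in R 4.3.3) fitted the group means, with a moderated test of each of 9 contrasts and Benjamini-Hochberg adjustment within each at a threshold of 0.05. The fit was tested on simulated data. The rule for naming took all listed genes, the called genes of related lists (up to 4 per list and comparison) and Plin2, Fabp2, Pparg and defining markers. Some further genes of the rule and the lists are not reported here. Ppara and Ppard were named after their values were seen. The genes and lists were chosen with earlier results of these data known.

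Arrays give no count of molecules, so precision rests on the number of arrays. Alternatives changed the filter, the probe set, the samples in the fit, weights, a replicate block, centering, the variance prior, a Hoxb13 covariate and the arrays included.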

Additional observations from a re-analysis of the deposited data

Results flagged for a closer look

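In groups of 4 or 5 arrays, the highest or lowest array of a gene stood apart from the rest of its group by Dixon's criterion in 10 of 99 combinations of gene and group. Chance gives about 1 in 20 for a single combination. The 99 share the same arrays and are not independent, and the share over all genes is not given here, so the count cannot be set against that rate. The 10 came from 2 arrays. On VC+ day 2 replicate 2, Acadl (12.01), Hadha (11.37), Hsd17b4 (10.25), Pex11a (8.45) and Acsl3 (10.64) were far above the other 4 arrays. This was the array of its group with low Hoxb13, and it had the highest mean of the epithelial markers of all arrays (12.54). The slope of Acsl3 on Hoxb13 within groups was 0.01 (standard error 0.04). On VC+ day 7 replicate 4, Acadvl (10.41), Hadha (10.59), Hadh (11.03), Ehhadh (6.53) and Hsd17b4 (9.15) were far below the other 3 arrays, and this array had Prss2 signal. Values are log2 expression, and the reason for either was not tested.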

How the results depend on the processing

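No result past the threshold reversed under any alternative run. The counts of genes called moved as follows. In VC- mice at day 7, 4 genes were called, against 2 with no variance filter, 0 when the fit held no other groups, 2 without the arrays with Prss2 signal, 0 with only arrays without Xist signal, and 2 without the array with the lowest epithelial markers (chosen after seeing the data). Leaving out 1 array at a time gave counts of 1 to 6, the lowest when VC- day 0 replicate 3 was left out and the highest when VC- day 7 replicate 1 was. The count was 2 on omission of VC- day 0 replicate 1, of VC- day 0 replicate 2 or of VC- day 7 replicate 2. In VC+ mice at day 7 the count was 0, against 1 without the arrays with Prss2 signal, 1 without the array with the lowest epithelial markers, and 0 to 1 on leaving out arrays (1 on omission of VC- day 7 replicate 1 or 2). In VC- mice at day 2 it was 1 when the fit held no other groups. Array quality weights raised the count from 0 to 7 in VC+ mice at day 7, 10 in VC+ mice at day 2, 1 between genotypes at day 0, 1 at day 7, 5 for the difference between day 2 responses and 1 for that between day 7 responses, and from 3 to 10 for the slope on Hoxb13. In VC- mice at day 7 the weights added Acsl4 and Etfdh to the calls. Over all genes the weights raised the calls from 2 to 340 for the difference between day 2 responses, and from 130 to 777 for the slope on Hoxb13. Where no number over all genes stands beside a count in this section, it is not given here. Such a count cannot be read as particular to these genes. That slope called 9 genes of the list without the arrays with Prss2 signal, among 368 of all genes. Without the day 7 arrays it called 5, among 414 of all genes. On leaving out arrays it called 0 to 9 (0 on omission of VC+ day 2 replicate 2, 0 on omission of VC+ day 0 replicate 1, and 9 on omission of VC- day 7 replicate 2). The causes were not tested.

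With the replicate number as a block, 2 genes (Acsl3 and Lpin1) were called in VC- mice at day 7 and 0 for the slope. The labels do not say that a number pairs arrays. Of 48 pairs with the same number, 18 had a correlation of deviations over 0.1 (mean 0.08), against 36 of 152 other pairs (mean -0.03). Of 22 arrays, 13 correlated best with their own number, where an even draw gives 5.26. These matches are not independent of each other, and whether arrays of the same number share something was not tested. With the Hoxb13 value as a covariate, the median over the 33 genes was 0.09 in place of 0.41 for VC- mice at day 2, -0.15 in place of -0.56 between genotypes at day 2, and -0.16 in place of -0.67 for the difference between day 2 responses.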

Other observations

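Ppargc1a, a coactivator of PPARs in oxidative tissues, was picked out after its values were seen. At day 0 it was 8.57, 5.74 and 6.41 in VC- and 9.84, 9.34 and 10.07 in VC+ mice, and at day 2 it was 8.07, 5.23 and 5.73 against 10.58, 8.80, 8.65, 9.89 and 10.07. The genotypes did not overlap on either day, with log2 differences of 2.84 (standard error 0.99, adjusted p = 0.663 by limma) and 3.26 (standard error 0.88, adjusted p = 0.235). At day 7 they overlapped (0.08, adjusted p = 0.968). None of these differences passed the test.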
